A study of Mus musculus with 6 samples.

Results

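The genes described here are 9 of the 54146 gene rows of the deposited table: the interferon gamma receptor chains Ifngr1 and Ifngr2, the type I interferon receptor chains Ifnar1 and Ifnar2, the Janus kinases Jak1 and Jak2, and the transcription factors Stat2, Irf1 and Irf9. They were chosen by name, with earlier results of these data known, and each name gave 1 row. D2A1, a mouse mammary tumor cell line used in tumor dormancy studies, was grown as 3D spheroids in Matrigel in DMEM with serum. In 3 libraries the spheroids had received recombinant SLURP1 (rSLURP1), a secreted Ly6/uPAR-related protein, and in the other 3 they had received recombinant GST (rGST) as the control protein. The labels give 50 nM for both proteins. All libraries thus come from 1 cell line in culture, and both groups received an added recombinant protein. No library came from untreated spheroids, so a level lowered by rSLURP1 and a level raised by rGST cannot be told apart. A gene that fell is one that was lower with rSLURP1 than with rGST. The labels do not say whether the libraries of a group came from separate cultures, so the p-values measure the spread between libraries, which may be technical.

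Interferon gamma binds a receptor made of IFNGR1 and IFNGR2 chains, to which JAK1 and JAK2 are attached. Signaling from these kinases acts through GAS elements in DNA and switches on genes such as Irf1. Type I interferons bind IFNAR1 and IFNAR2, and JAK1 with TYK2 then phosphorylates STAT2, which works with IRF9 in the complex ISGF3 at interferon-stimulated response elements (ISRE). The interferon gamma receptor belongs to the signaling axis that the study followed upstream of SLURP1 in tumor cells. The comparison here ran in the other direction, and asked which interferon receptor and signaling genes differed in cells given rSLURP1.

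Expression was given as TPM, in which the reads of a gene are corrected for transcript length and each library is scaled to the same total. TPM holds no record of the depth of a library, so depth is unknown. All 9 genes had at least 7.93 TPM in every library, so none passed the filter on low values through 1 group alone. The test was limma's on log2(TPM + 1), for 12301 genes that reached 1 TPM in 3 or more libraries, and p-values were adjusted by Benjamini-Hochberg. For a gene with low TPM this scale gives too small a fold change. Across the tested genes the median log2 fold change was -0.33 in the deposited values and 0.01 after median-ratio scaling, in which each library is divided by the median ratio of its genes to their geometric means. A fold change near -0.33 is therefore where the typical gene lay, and each of the 9 genes is also given after that scaling. Between 11906 and 12449 genes reached 1 TPM in a library.

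The labelled mammary tumor cell was checked against markers. Of the epithelial markers, Krt18 had 191 to 199 TPM in all libraries, whereas Epcam, Krt5 and Krt14 were listed at 0 and Cdh1 had at most 0.07 TPM. The summed level of 8 mesenchymal or fibroblast markers, Vim, Pdgfra and Dcn among them, was 2252 to 2479 TPM with rGST and 726 to 779 TPM with rSLURP1. The markers did not move alike. Vim had 1184 to 1340 TPM with rGST and 640 to 699 TPM with rSLURP1. Dcn had 520 to 636 and 5.15 to 5.88 TPM, and Lum had 165 to 195 and 0.58 to 1.09 TPM. None of the 8 was higher with rSLURP1. The sum thus moved in the same direction as the 9 genes, and its part in their differences was not tested. The 12 immune markers, 6 of them listed at 0, summed to 3.61 to 4.12 TPM with rGST and 7.85 to 10.7 TPM with rSLURP1, nearly all of it Cd68 (3.57 to 4.07 and 7.75 to 10.6 TPM), and its part in the results was not tested. Ptprc, the pan-leukocyte gene, had at most 0.01 TPM. The 4 endothelial markers summed to at most 0.31 TPM. In bulk RNA, fewer cells of a type and less RNA per cell cannot be told apart.

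As deposited, 8 of the 9 genes fell with rSLURP1 at an adjusted p-value of 0.05 in limma and none rose. Over all tested genes 58.5% fell and 8.66% rose, so most genes were already lower. The 9 genes were chosen with earlier results of these data known, so no excess over that share is read from the count of 8. With median-ratio scaling 4 of the 9 fell and none rose, against 24.6% and 26.6% of all tested genes. The count was also 4 lower and none higher after quantile normalization (23.6% and 25.3% of tested genes) and after the length and GC correction (21.9% and 27.0%), and 9 lower with a replicate block (56.5% and 8.19%). The 4 after median-ratio scaling were Irf1, Irf9, Stat2 and Ifngr1. The transcription factors Irf1, Irf9 and Stat2 fell by more than 2-fold under both scalings, a size passed by 7.06% of tested genes as deposited and by 3.74% after median-ratio scaling. In each of the 9 genes every rSLURP1 library lay below every rGST library, as it did for 61.7% of all tested genes.

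**Figure D1:**
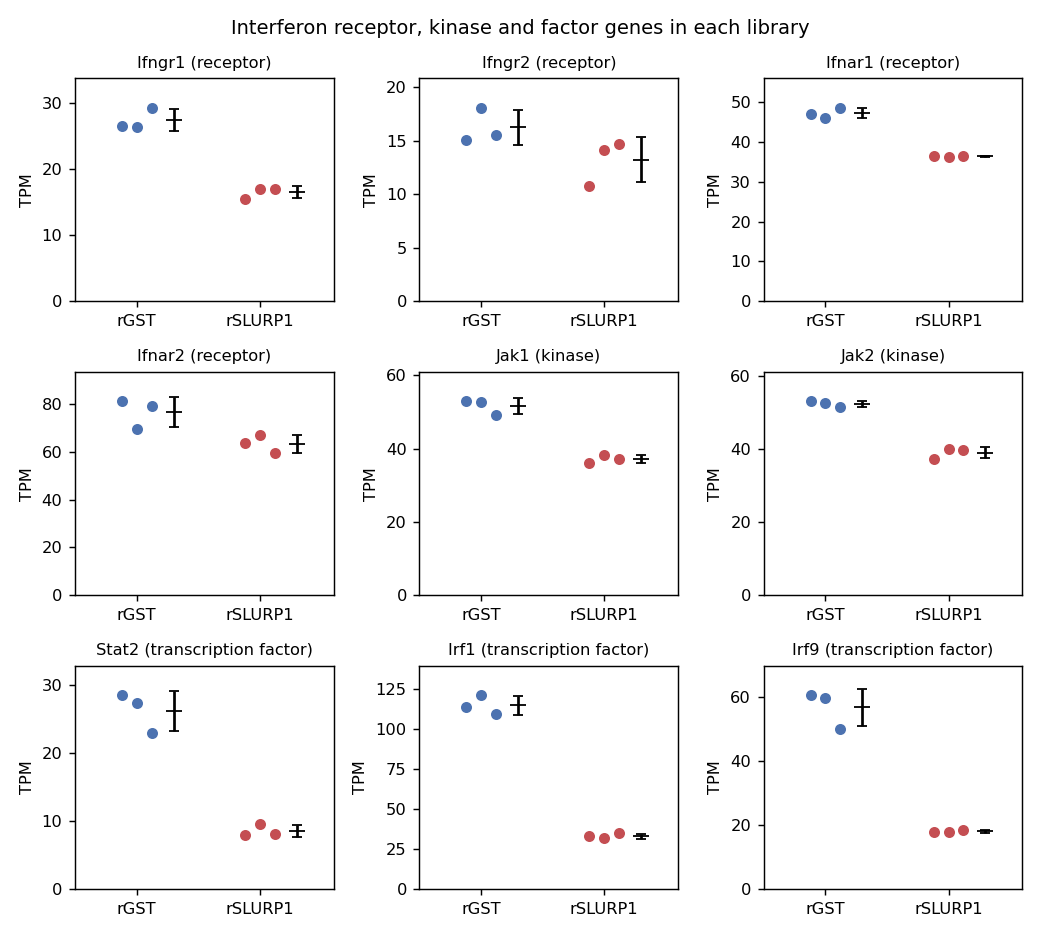
TPM of each gene in each library, with 1 panel per gene and the vertical axis starting at 0. Blue points are the 3 rGST libraries, red points the 3 rSLURP1 libraries, and the black marks are mean and SD. Irf1 lay between 109 and 121 TPM with rGST and between 31.6 and 34.7 TPM with rSLURP1, whereas the groups of Ifngr2 were only 0.37 TPM apart.

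Ifngr1 (ENSMUSG00000020009.13, GRCm38 chromosome 10, 19591949 to 19610229, plus strand) encodes the ligand-binding chain of the interferon gamma receptor, which carries JAK1. Its levels were 26.5, 26.4 and 29.3 TPM with rGST and 15.5, 17.0 and 17.0 TPM with rSLURP1. The groups did not overlap and their nearest libraries were 9.35 TPM apart. The mean fell from 27.4 ± 1.65 TPM to 16.5 ± 0.881 TPM (SD, n = 3 each), a decrease of 39.7%. On the log2 scale the difference was -0.70 (standard error 0.070, limma adjusted p = 1.01e-04). As deposited, 17.4% of all tested genes had a lower fold change than Ifngr1. After median-ratio scaling the difference of Ifngr1 was -0.35 (adjusted p = 0.00360 in limma).

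Ifngr2 (ENSMUSG00000022965.8, chromosome 16, 91547072 to 91565623, plus strand) encodes the second chain, which brings JAK2 to the complex and is needed for signaling. It was the lowest of the 9 genes with rGST. Its levels were 15.1, 18.1 and 15.6 TPM with rGST and 10.8, 14.1 and 14.7 TPM with rSLURP1. The first rSLURP1 library was the lowest, and the other two came close to the rGST libraries. Its log2 fold change was -0.29 (95% interval -0.58 to 0.01, adjusted p = 0.0775 in limma), which did not pass the threshold. Leaving out 1 library gave -0.36 to -0.16, the smallest without the first rSLURP1 library. After median-ratio scaling the groups overlapped and the value was 0.05 (95% interval -0.23 to 0.34).

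Ifnar1 (ENSMUSG00000022967.13, chromosome 16, 91485238 to 91507441, plus strand) encodes the type I receptor chain that binds TYK2. It had 46.9, 46.0 and 48.6 TPM with rGST and 36.4, 36.2 and 36.5 TPM with rSLURP1, the narrowest spread of the 9 genes under rSLURP1 (SD 0.150 TPM). Its log2 fold change of -0.36 (adjusted p = 3.01e-04 in limma) differed by 0.04 from the median of all tested genes. After median-ratio scaling it was -0.01 (95% interval -0.12 to 0.10), and after correcting for GC content and transcript length it reversed to 0.05 (95% interval -0.05 to 0.16).

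Ifnar2 (ENSMUSG00000022971.18, chromosome 16, 91372783 to 91405589, plus strand) encodes the chain that binds type I interferon with high affinity and carries JAK1. Its transcripts include a form for a soluble receptor, which a value per gene does not separate. It has 315 exonic bases in common with Gm21970 on the same strand. Gm21970 had no row under that name among the deposited genes, so its level is unknown. The Ifnar2 value is uncertain to that extent. It was the most abundant receptor gene, at 81.2, 69.7 and 79.3 TPM with rGST and 63.9, 67.0 and 59.5 TPM with rSLURP1. The groups were 2.67 TPM apart at their nearest. The log2 fold change was -0.27 (standard error 0.072, limma adjusted p = 0.0120) as deposited and reversed to 0.09 (95% interval -0.07 to 0.25, adjusted p = 0.302 in limma) after median-ratio scaling, where the groups overlapped.

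Jak1 (ENSMUSG00000028530.14, chromosome 4, 101152367 to 101265282, minus strand) encodes a kinase shared by both receptors. It had 52.9, 52.8 and 49.2 TPM with rGST and 36.2, 38.3 and 37.1 TPM with rSLURP1. Jak2 (ENSMUSG00000024789.12, chromosome 19, 29251828 to 29313080, plus strand), the kinase of the IFNGR2 chain and of many cytokine receptors, had 53.0, 52.5 and 51.4 TPM with rGST and 37.2, 40.1 and 39.7 TPM with rSLURP1. Both kinases were thus present at nearly the same level in each group, and both groups were well apart. The log2 fold change was -0.46 for Jak1 (standard error 0.052, adjusted p = 1.69e-04 in limma). For Jak2 it was -0.42 (standard error 0.049, adjusted p = 2.27e-04 in limma). After median-ratio scaling the values were -0.11 (95% interval -0.21 to 0.00) and -0.06 (95% interval -0.16 to 0.04), and neither passed the threshold. With the length and GC correction they were -0.03 and -0.01.

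Stat2 (ENSMUSG00000040033.16, chromosome 10, 128270559 to 128292849, plus strand) encodes the STAT of the ISGF3 complex. Its levels were 28.5, 27.3 and 22.9 TPM with rGST and 7.93, 9.51 and 8.08 TPM with rSLURP1. Every rSLURP1 library held less than any rGST library by at least 13.4 TPM. The mean fell from 26.3 ± 2.94 TPM to 8.51 ± 0.872 TPM (SD, n = 3 each), and Stat2 was the lowest of the 9 genes with rSLURP1. The log2 fold change was -1.52 (standard error 0.105, limma adjusted p = 1.77e-05) as deposited and -1.18 (adjusted p = 6.74e-05 in limma) after median-ratio scaling.

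Irf9 (ENSMUSG00000002325.15, chromosome 14, 55603571 to 55610030, plus strand) encodes the DNA-binding subunit of ISGF3. It had 60.4, 59.6 and 49.8 TPM with rGST and 17.8, 17.7 and 18.3 TPM with rSLURP1. The mean with rSLURP1 was 31.6% of that with rGST. The log2 fold change was -1.60 (standard error 0.080, limma adjusted p = 4.18e-06), and -1.25 (adjusted p = 1.86e-05 in limma) after median-ratio scaling. The annotation gives Irf9 123 exonic bases in common with Rnf31 on the same strand. Rnf31, which encodes a subunit of the linear ubiquitin ligase complex, had 28.2 to 30.3 TPM with rGST and 14.2 to 15.04 TPM with rSLURP1, so reads from that stretch could belong to either gene and the Irf9 value is uncertain to that extent.

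Irf1 (ENSMUSG00000018899.16, chromosome 11, 53770014 to 53778374, plus strand) encodes a transcription factor that interferon gamma induces and that drives antigen presentation genes. It was the most abundant of the 9 genes with rGST, at 114, 121 and 109 TPM, and had 32.8, 31.6 and 34.7 TPM with rSLURP1. The nearest libraries of the groups were 74.7 TPM apart. The mean fell from 114.7 ± 5.96 TPM to 33.0 ± 1.54 TPM (SD, n = 3 each), a decrease of 71.2%. Its log2 fold change of -1.76 (standard error 0.057, limma adjusted p = 5.89e-07) was the largest decrease of the 9 genes, and 234 of the 12301 tested genes had a lower one. After median-ratio scaling the value was -1.41 (adjusted p = 2.78e-06 in limma). Irf1 has 135 exonic bases in common with Gm17334 on the opposite strand, which had at most 0.18 TPM.

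**Figure D2:**
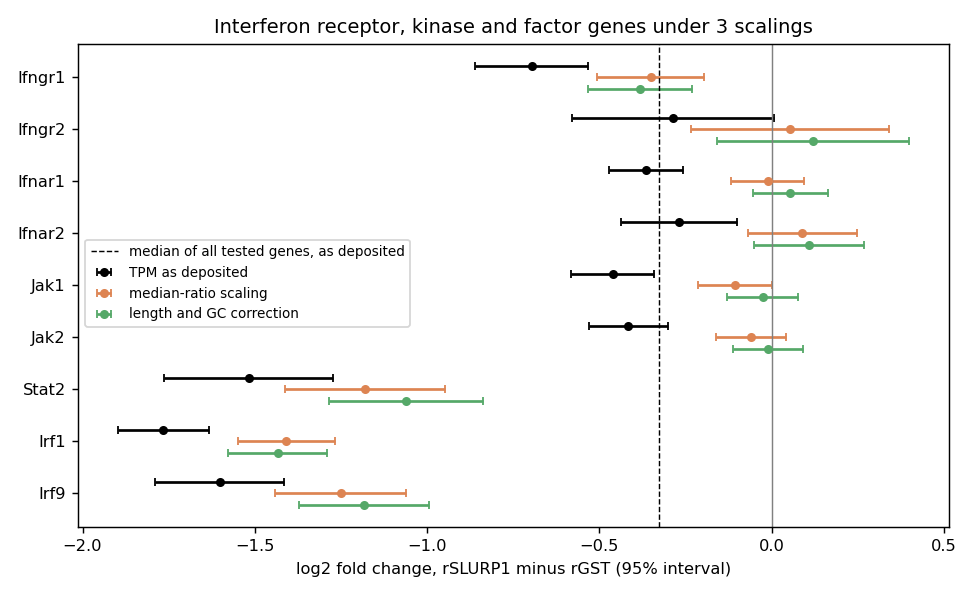
Log2 fold change, rSLURP1 minus rGST, of the 9 genes with 95% intervals from limma, for the TPM as deposited (black), after median-ratio scaling (orange) and after the length and GC correction (green). The dashed line is the median of all tested genes as deposited (-0.33). Irf1, Irf9 and Stat2 lay below -1 under all 3, Ifngr1 lay at -0.70, -0.35 and -0.38, and the intervals of the other 5 genes included 0 after both adjustments.

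RefSeq promoter windows on GRCm38.p6 were searched for the letters of the elements that these factors bind, in the 250 bases before each start site and on both strands. The 9 genes had 11 windows, since Irf1 and Irf9 had 2 starts each. Both Irf9 windows lay inside the gene span given above, so the bases before that span were not searched. The GAS letters TTCNNNGAA were in 2 windows, of Irf1 and Ifnar2, and in 7.02% of all 32851 promoter windows. The ISRE core letters (GAAA, any 2 bases, GAAA) were in 1 window, of Stat2, and in 2.98% of all windows. The searched motifs did not overlap each other in these windows. The windows with a match are shown 5′ to 3′ on the strand of the gene, with the matching letters in capitals. They are chr11:53769764-53770013 (plus strand) for Irf1, chr10:128270248-128270497 (plus strand) for Stat2 and chr16:91372533-91372782 (plus strand) for Ifnar2.
Irf1: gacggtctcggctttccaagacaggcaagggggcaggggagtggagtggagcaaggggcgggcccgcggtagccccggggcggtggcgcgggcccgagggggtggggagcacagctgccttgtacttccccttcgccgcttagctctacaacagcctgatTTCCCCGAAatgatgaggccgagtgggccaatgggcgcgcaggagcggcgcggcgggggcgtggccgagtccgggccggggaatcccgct
Stat2: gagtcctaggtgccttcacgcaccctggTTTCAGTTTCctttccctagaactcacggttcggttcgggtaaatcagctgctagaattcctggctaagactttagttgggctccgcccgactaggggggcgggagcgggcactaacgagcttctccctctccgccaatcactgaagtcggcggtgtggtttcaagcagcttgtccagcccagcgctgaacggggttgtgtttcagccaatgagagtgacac
Ifnar2: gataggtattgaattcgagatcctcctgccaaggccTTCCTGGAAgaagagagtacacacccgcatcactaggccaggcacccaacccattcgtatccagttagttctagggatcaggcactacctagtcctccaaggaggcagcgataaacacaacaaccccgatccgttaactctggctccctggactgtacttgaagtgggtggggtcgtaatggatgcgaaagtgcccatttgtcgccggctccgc
In Irf1 the match ran from 90 to 82 bases before the start, and in Ifnar2 from 214 to 206 bases before it. The Stat2 match, from 222 to 213 bases before the start, read as the element on the opposite strand. Irf1 and Ifnar2 each held GAS letters, and their log2 fold changes were -1.76 and -0.27. When the 50 bases after each start were included, GAS letters were in 3 windows, with Ifnar1 added, and in 8.3% of all windows. ISRE core letters were then still in 1 window, of Stat2, and in 3.44% of all windows. A match is a description of the letters and not evidence of binding in these cells.

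The order of the levels differed between the groups. With rGST the order was Irf1, Ifnar2, Irf9, Jak2, Jak1, Ifnar1, Ifngr1, Stat2 and Ifngr2. The ranges of Irf9 and Jak2, of Jak2 and Jak1, and of Ifngr1 and Stat2 overlapped. Within a library the first gene was above the second in 2, 2 and 1 of the 3 libraries, so the order of those neighbours varied. With rSLURP1 the order was Ifnar2, Jak2, Jak1, Ifnar1, Irf1, Irf9, Ifngr1, Ifngr2 and Stat2. The range of Jak2 overlapped with that of Jak1, and that of Jak1 with that of Ifnar1. Within a library Jak2 was above Jak1 in all 3 and Jak1 above Ifnar1 in 2. Irf1 went from rank 1 to rank 5 and Irf9 from rank 3 to rank 6.

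Ratios between genes within a library do not depend on how the library is scaled. In 5 pairs that work together they were compared by an exact two-sided permutation test over libraries, in which 0.1 is the smallest p-value that 3 against 3 can give. Ifngr1 to Ifngr2 was 1.75, 1.46 and 1.88 with rGST and 1.44, 1.20 and 1.16 with rSLURP1. The groups did not overlap, although the lowest rGST and the highest rSLURP1 library were close. The log2 ratio fell by 0.42 (exact permutation p = 0.1, adjusted over the 5 pairs p = 0.333). Ifnar1 to Ifnar2 was 0.58 to 0.66 with rGST and 0.54 to 0.61 with rSLURP1 (log2 difference -0.10, exact permutation p = 0.3, adjusted 0.375), so the groups overlapped.

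Jak1 to Jak2 was 0.957 to 1.005 with rGST and 0.93 to 0.97 with rSLURP1 (log2 difference -0.05, exact permutation p = 0.2, adjusted 0.333). Stat2 to Irf9, the pair of ISGF3 subunits, was 0.47, 0.46 and 0.46 with rGST and 0.45, 0.54 and 0.44 with rSLURP1 (log2 difference 0.03, exact permutation p = 1, adjusted 1). The SD of the log2 ratio was 0.023 over the rGST and 0.16 over the rSLURP1 libraries, the groups overlapped, and the difference turned to -0.06 without the second rSLURP1 library. Both genes fell by more than 2-fold. Irf1 to Irf9 was 1.88 to 2.19 with rGST and 1.79 to 1.89 with rSLURP1 (log2 difference -0.14, exact permutation p = 0.2, adjusted 0.333).

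Ratios of a factor to a receptor or kinase were chosen after the values were seen and are given with no test. Irf1 to Ifngr1, a target of the pathway against its receptor, was 4.29, 4.59 and 3.74 with rGST and 2.12, 1.86 and 2.04 with rSLURP1. Stat2 to Ifnar1 was 0.61, 0.59 and 0.47 with rGST and 0.22, 0.26 and 0.22 with rSLURP1. Irf9 to Ifnar2 was 0.74, 0.85 and 0.63 with rGST and 0.28, 0.26 and 0.31 with rSLURP1. In each of these ratios the groups stood well apart, by 2.09-fold, 2.38-fold and 2.61-fold on average. Among the receptors, Ifngr1 to Ifnar1 was 0.56 to 0.60 with rGST and 0.43 to 0.47 with rSLURP1, a 1.28-fold difference with no overlap.

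**Figure D3:**
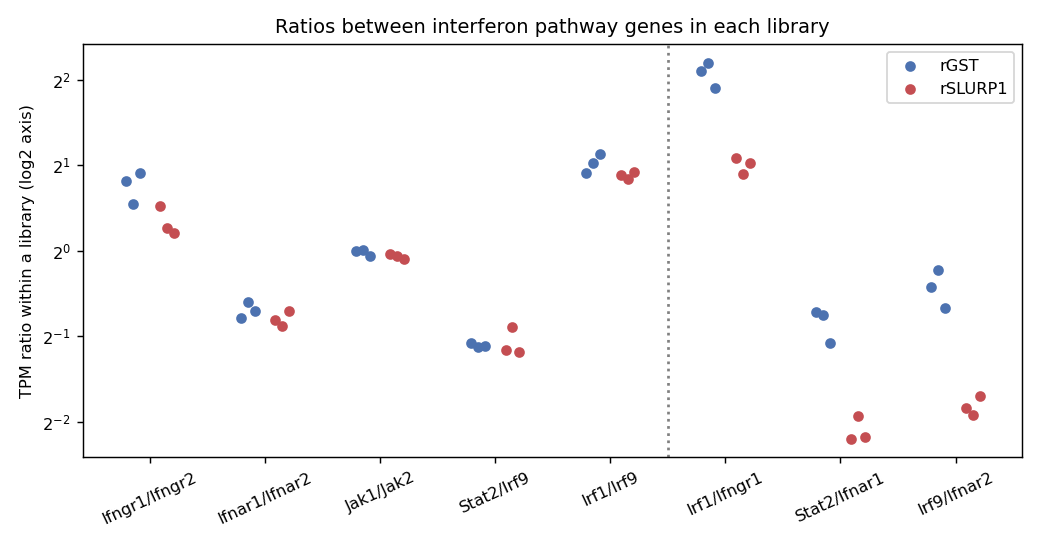
TPM ratio of pairs of genes within each library on a log2 axis, with rGST in blue and rSLURP1 in red. The 5 pairs left of the dotted line were tested, and the 3 to its right were chosen after the values were seen. Of the 5 tested pairs only Ifngr1/Ifngr2 had groups that did not overlap, and no pair had an adjusted exact permutation p-value below 0.333. The factor to receptor ratios were 2.09-fold to 2.61-fold lower with rSLURP1.

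The other genes of the pathway were taken from lists of receptor chains, kinases, STATs, IRFs, inhibitors, ligands and target genes. These lists were also chosen with earlier results of these data known, so their counts are a description. Of the other receptor chains and kinases, 3 of 4 were tested and all 3 fell as deposited, where 58.5% of all tested genes did. After median-ratio scaling 2 fell and none rose, and after quantile normalization or the length and GC correction 1 fell and 1 rose. Tyk2, the kinase of IFNAR1, fell from 27.8 ± 1.40 TPM to 18.3 ± 1.14 TPM (SD, n = 3 each), or by -0.58 on the log2 scale (adjusted p = 2.53e-04 in limma), and remained lower after median-ratio scaling at -0.23 (adjusted p = 0.0259 in limma). Jak3, the kinase of the common gamma chain, had a log2 fold change of -0.90, and -0.57 after median-ratio scaling. Il10rb, the shared chain of the lambda interferon receptor, had 27.8 to 29.4 TPM with rGST and 23.9 to 25.3 TPM with rSLURP1, a log2 fold change of -0.22 that turned to 0.13 after median-ratio scaling. Ifnlr1, its specific partner, had at most 0.02 TPM.

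Of 6 other STATs, 5 were tested, 4 fell and none rose as deposited, beside 58.5% and 8.66% of all tested genes. After median-ratio scaling 4 fell and 1 rose, beside 24.6% and 26.6%. Stat5a and Stat6, which serve growth hormone and interleukin receptors, had log2 fold changes of -1.16 and -0.88 as deposited and of -0.81 and -0.52 after median-ratio scaling. Stat3, the STAT of the IL-6 family, had -0.12 (adjusted p = 0.0837 in limma) as deposited and 0.24 (adjusted p = 0.00438 in limma) after median-ratio scaling, the opposite direction.

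Of 7 other IRFs, 3 were tested and all 3 fell as deposited and 2 after median-ratio scaling, beside 58.5% and 24.6% of all tested genes, while Irf4 and Irf8 were listed at 0 in every library. Irf7, which ISGF3 induces and which drives type I interferon genes, had 49.3, 45.8 and 41.1 TPM with rGST and 5.23, 6.94 and 7.0 TPM with rSLURP1. Its rGST mean was 7.11 times its rSLURP1 mean (log2 fold change -2.66, adjusted p = 2.51e-06 in limma, and -2.32 after median-ratio scaling). Irf3, which is activated by nucleic acid sensing, had a log2 fold change of -0.72 as deposited and -0.37 after median-ratio scaling. Irf2, a competitor of IRF1, had -0.44 as deposited and -0.09 (adjusted p = 0.458 in limma) after median-ratio scaling.

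All 17 inhibitors of JAK-STAT signaling were tested, and 14 fell, none rose and 3 (Socs7, Ptpn6 and Pias4) did not pass the test, beside 58.5% of all tested genes that fell. After median-ratio scaling 7 fell and 1 rose, beside 24.6% and 26.6%. The median log2 fold change of the inhibitors was -0.40 as deposited, near the -0.33 of all tested genes, and -0.05 after that scaling. Usp18, an ISGF3 target that blocks IFNAR2 signaling, had 19.7, 21.5 and 15.9 TPM with rGST and 1.33, 1.72 and 0.92 TPM with rSLURP1. It showed the largest decrease of this list, a log2 fold change of -3.11 (adjusted p = 5.15e-06 in limma), and -2.83 after median-ratio scaling. Socs3, which restrains IL-6 family receptors, went from 76.4 ± 1.54 TPM to 42.9 ± 0.4997 TPM (SD, n = 3 each), with -0.82, and -0.46 after median-ratio scaling. Pias3 had -1.08 and -0.74 on the same scales. Ptpn11, the phosphatase SHP2, had -0.26 as deposited and 0.10 (adjusted p = 0.0463 in limma) after median-ratio scaling.

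Interferon ligands were at or near 0. Of 21 ligand genes, 19 were listed at 0 in all 6 libraries, Ifng among them. Ifnb1 had 0.34 TPM in 1 rGST library and 0 in the others, and Ifne had 0.20 to 1.48 TPM with rGST and 0.12 to 0.34 TPM with rSLURP1. No ligand gene passed the filter.

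Of 35 listed target genes of type I interferon, 33 were tested and all 33 fell as deposited, 29 of them at least 2-fold. Over all tested genes 58.5% fell, and 7.06% fell at least 2-fold. The median log2 fold change of the 33 was -1.77, beside -0.33 for all tested genes. Of the 33, 6 were below 1 TPM in every rSLURP1 library and passed the filter through the rGST libraries, so their decrease was fixed by the filter. Of the 26 with at least 1 TPM in all libraries, 26 fell, with a median of -1.73. After median-ratio scaling 32 of the 33 fell and none rose, beside 24.6% and 26.6% of all tested genes. The median of the 33 was then -1.47. The counts of 33, 29 and 32 and both medians of the 33 include genes among those 6. No count after this scaling is given for the 26 alone. Ifit3, an antiviral ISGF3 target, had 94.3, 92.4 and 68.8 TPM with rGST and 1.79, 1.73 and 0.95 TPM with rSLURP1, and its log2 fold change of -5.12 was the largest decrease of the list (-4.83 after median-ratio scaling). Oasl2 fell from 158.4 ± 25.3 TPM to 11.97 ± 1.29 TPM and Bst2 (tetherin) from 678 ± 80.9 TPM to 242.7 ± 17.4 TPM (SD, n = 3 each), with log2 fold changes of -3.61 and -1.47 as deposited and -3.26 and -1.11 after median-ratio scaling. Ifitm3, which blocks virus entry and was the most abundant of the list, had -0.31 as deposited and 0.05 (adjusted p = 0.431 in limma) after median-ratio scaling.

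Of 28 listed target genes of interferon gamma, 18 were tested and all 18 fell as deposited, 16 of them at least 2-fold. Of all tested genes 58.5% fell, and 7.06% fell at least 2-fold. The median log2 fold change of the 18 was -1.84, and -1.53 after median-ratio scaling. All 18 fell after that scaling as well, beside 24.6% of all tested genes. Of the 18, Gbp4, Gbp7, Ifi47 and Psmb9 were below 1 TPM in every rSLURP1 library, and their decrease was fixed by the filter in the same way. The counts of 18 and 16 and both medians of the 18 include these genes. Of the 14 with at least 1 TPM in all libraries, 14 fell, with a median of -1.84. Gbp3, an interferon-induced GTPase, had 49.1, 47.5 and 39.0 TPM with rGST and 4.55, 4.59 and 4.44 TPM with rSLURP1 (log2 fold change -3.06, adjusted p = 5.35e-07 in limma, and -2.73 after median-ratio scaling). Psmb8, a catalytic subunit of the immunoproteasome, had a log2 fold change of -2.87, and Igtp, another GTPase, had -2.47 (-2.55 and -2.16 after median-ratio scaling). B2m, the light chain of MHC class I, fell from 589 ± 34.8 TPM to 373.6 ± 4.79 TPM (SD, n = 3 each), which is -0.65 on the log2 scale as deposited and -0.29 after median-ratio scaling. Tapbp (tapasin) had -1.11 and -0.75, the latter under 2-fold. Whether the genes of this list and of the type I list respond to only the interferon they are listed under was not tested. The counts of these lists are therefore not separate evidence on each pathway.

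**Figure D4:**
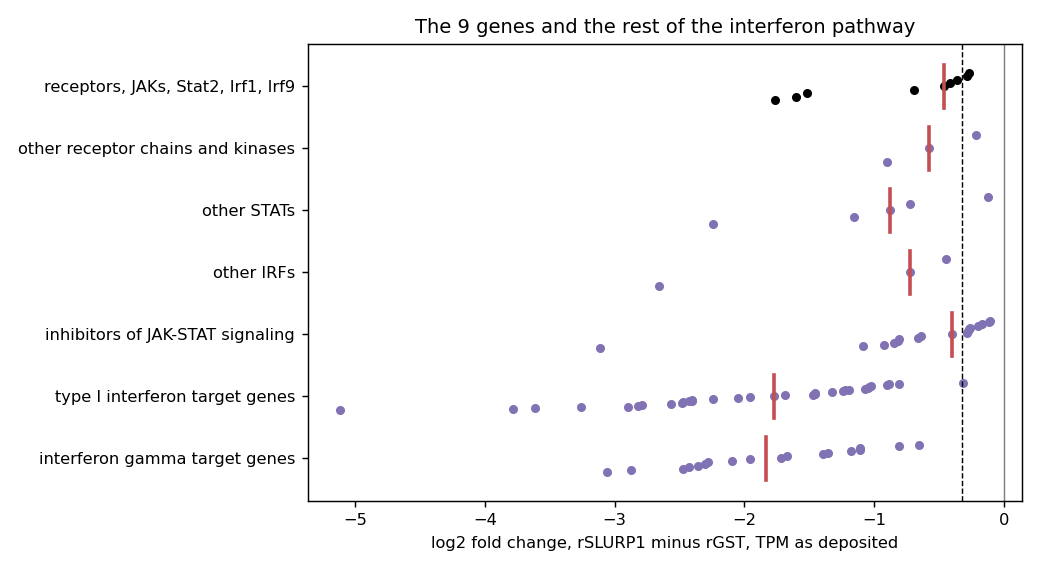
Log2 fold change, rSLURP1 minus rGST, of each tested gene as deposited, by list, with the 9 genes in black, the other lists in purple and the median of each list as a red bar. The dashed line is the median of all tested genes. All tested genes of both target lists lay below 0, 6 of 33 and 4 of 18 of them having passed the filter through rGST alone; the red bars of these lists, at -1.77 and -1.84, include those genes, whereas the median of the inhibitors was -0.40.

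The tested genes whose pattern over the 6 libraries was most like each of the 9 were found by Pearson correlation of log2(TPM + 1). These libraries fall in 2 groups, so the correlations mostly follow the difference between treatments and are given as a description. Hexim1 (r = 0.9995) and Ino80 were nearest to Ifngr1, Cdk10 (r = 0.994) and Mettl7a1 (r = 0.987) to Ifngr2, Dctn4 and Adh7 to Ifnar1, and Rnf215 (r = 0.995) and Rad18 (r = 0.993) to Ifnar2. Cops4 and Chadl were nearest to Jak1, Maged1 and Pcbp1 to Jak2, and Ints9 and Plxna3 to Stat2. Pik3r1 and C1qtnf1 were nearest to Irf1, and Phldb2 and Ddx42 to Irf9. Chadl had 1.34 to 1.66 TPM with rGST and 0.27 to 0.40 TPM with rSLURP1. It passed the filter through rGST alone, so its decrease was fixed by the filter. Hexim1, nearest to Ifngr1, had 41.3 to 47.2 TPM with rGST and 23.5 to 25.6 TPM with rSLURP1. Among the 9 genes, Jak1 and Stat2 (r = 0.999) were the most alike and Ifngr2 and Ifnar2 (r = 0.382) the least.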

How the data were processed

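RNAseq of D2A1 spheroids was analysed in 6 libraries, grouped by the sample labels. The authors deposited TPM per gene, 1 column per library with no pooling, from RSEM on GENCODE M12 after trimming (Cutadapt) and two-pass STAR alignment to mm10. The submitters' processing notes name cutadapt 1.18 and RSEM 1.3.3, whereas the paper names other versions. For library preparation the methods give Smart-seq2 but the labels a TruSeq mRNA kit. TPM keeps no depth, so precision rests on 3 libraries per group.

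log2(TPM + 1) was fitted with limma 3.58.1 in R 4.3.3 (lmFit, eBayes with trend) with no blocking term. Benjamini-Hochberg adjusted p-values were called at 0.05, and 2-fold was the size threshold. Same-numbered libraries' deviations had correlations of -0.061 to -0.034, so no shared effect of the replicate numbers was seen. With 3 libraries per group this cannot show whether libraries were handled in pairs. The fit was tested on simulated data. Of 54146 identifiers, 54079 matched GENCODE M21 (GRCm38) without version, the source of coordinates and exons. Promoters came from RefSeq. Some genes of the lists are counted in them but not reported here.

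The 9 genes and the lists were chosen with earlier results of these data known. From each list, the 3 most abundant tested genes and the 3 called genes with the largest change were eligible to be named, as were the 2 genes most correlated with each of the 9 (gene models without an assigned name left out). Epithelial, mesenchymal, immune and endothelial markers were listed likewise. Alternatives were a pseudocount of 0.1, other filters, TPM without mitochondrial genes, median-ratio scaling, quantile normalization, a loess correction for transcript length and GC content (span 0.3), eBayes without trend, a replicate block and leaving out each library.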

Additional observations from a re-analysis of the deposited data

How the results depend on the processing

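Irf1, Irf9, Stat2 and Ifngr1 stayed lower and past the threshold in all 16 alternatives, with log2 fold changes from -1.80 to -1.41, -1.69 to -1.18, -1.61 to -1.06 and -0.73 to -0.30. Median-ratio scaling, quantile normalization, and a correction for GC content and length moved the median of all tested genes to 0.01, 0.02 and 0.03, and 4 of the 9 genes fell in each and also when the correction was joined with the replicate block. In that order the log2 fold changes were -0.107, -0.122 and -0.0256 for Jak1, -0.0605, -0.0805 and -0.0112 for Jak2, -0.0105, -0.0211 and 0.0546 for Ifnar1, 0.0896, 0.0160 and 0.108 for Ifnar2, and 0.0534, 0.107 and 0.121 for Ifngr2, none past the threshold. Adding the block to the correction left these values as they were. The replicate block alone gave Ifngr2 -0.29 (limma adjusted p = 0.0456, from 0.0456 to 0.739 over its alternatives), past the threshold. It changed no other call among the 9. Whether the replicate numbers pair the libraries is unknown. Leaving out any 1 library changed no call among the 9.

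Over all tested genes, 3029, 2905 and 2690 fell and 3274, 3111 and 3320 rose under these 3 settings (2468 and 3095 with block and correction), in place of 7200 and 1065. Lower genes then made up 48.1%, 48.3% and 44.8% of calls in place of 87.1%. At 2-fold, 460, 416 and 412 fell and 314, 314 and 270 rose (413 and 270 with block and correction), in place of 869 and 142, and 94 rose with a filter in all libraries. Of the inhibitors 7, 6 and 6 fell and 1, 2 and 2 rose (6 and 2 with block and correction). Among the other STATs 1 (Stat3) rose in each of these. Of the other receptor chains and kinases 1 fell under quantile normalization and the correction and with block and correction, and 1 (Il10rb) rose under quantile normalization and the correction. Without a filter, 1 interferon gamma target (Cd74, at most 0.36 TPM) rose. The cause was not tested.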

Other observations

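Of the interferon gamma target genes, 10 did not reach the filter and are given as values only. Those named here were chosen after their values were seen. Iigp1, a GTPase of the same family as Igtp, had 1.48, 1.25 and 0.49 TPM with rGST and 0.01, 0.01 and 0.10 TPM with rSLURP1. Nlrc5, the transactivator of MHC class I genes, had 0.83, 0.32 and 0.22 TPM with rGST and 0.20, 1.05 and 0.42 TPM with rSLURP1, so the groups overlapped. Ciita, the transactivator of MHC class II genes, had at most 0.09 TPM in any library. Of the type I target genes, Mx1 and Sp100 did not reach the filter. Mx1, an antiviral GTPase, had 0.88, 1.24 and 0.44 TPM with rGST and 0.08, 0.05 and 0.12 TPM with rSLURP1.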
